A study of Mus musculus with 12 samples.

Results

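The genes described here are targets and regulators of ATF4 that serve amino acid synthesis, amino acid transport and tRNA charging. They were followed in blood progenitors of mice that had lost Lamtor2. The module is a list of 38 genes: 7 stress regulators and effectors, 5 serine and folate enzymes, 7 other amino acid enzymes, 8 amino acid transporters and 11 tRNA synthetases. A gene was counted as measured where a probe set of the array carried its symbol and no other. By that rule 37 of the 38 genes were measured, among 19937 genes in all, and Pycr1 was not analysed here.

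RNA came from sorted bone marrow cells of C57BL/6J mice, on 12 Affymetrix arrays with 3 arrays in each of 4 groups. KO LSK and KO GMP cells came from 3 Mx-Cre Lamtor2f/f mice, in which floxed Lamtor2 alleles are deleted by the Cre recombinase. WT LSK and WT GMP cells came from 3 Mx-Cre mice with wild-type Lamtor2. LSK cells, which hold the stem cells and multipotent progenitors, were gated as Lin- Sca1+ c-Kit+. GMP cells, the granulocyte and macrophage progenitors, were gated as Lin- Sca1- c-Kit+ CD34+ FcγR+. The design text names Mx-Cre for both genotypes, while the strain labels of both read Mx1-Cre wt/wt, which leaves the Cre genotype unclear. Both were injected with pIpC, and cells were taken at day 14. The Mx promoter answers to interferon in many cell types, so the deletion need not be limited to blood progenitors, and pIpC itself is an interferon inducer. The sources used here state neither the sex and age of the mice nor how LSK samples and GMP samples match up by mouse.

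ATF4 is a transcription factor whose mRNA is translated more when the initiation factor eIF2 is phosphorylated, the step that starts the integrated stress response. One of the kinases that does this is GCN2, encoded by Eif2ak4, which senses uncharged tRNA when amino acids are short. ATF4 then turns on genes that make amino acids, carry them into the cell and load them onto tRNA, and the growth kinase complex mTORC1 also raises ATF4 and these same genes. LAMTOR2 is a subunit of Ragulator, the complex that holds Rag GTPases on the lysosome, where mTORC1 is recruited when amino acids are plentiful. In the blood system, mice without Atf4 have a severe fetal anaemia.

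ATF4 binds DNA with C/EBP partners at a composite element, so the promoters of the module were read for it. A window from 250 bases before to 50 bases after the start of each gene was taken from RefSeq, build GRCm38.p6, and held 30 of the 37 measured genes. Searched on both strands, the C/EBP-ATF response element TGATGNAAN was found in 10 of these 30 genes, against 4.5% of 27025 genes with a window. The cyclic AMP response element TGACGTCA was found in 1 of the 30, Ppp1r15a, against 2.03% of all genes, and no gene of the module held both. Of the 22 genes that passed the test for KO against WT in either cell type, 18 had a window and 6 held the C/EBP-ATF element. Stretches of those 6 promoters follow, 5′ to 3′ on the strand of the gene, because they show how the same short element is written in a tRNA synthetase, an enzyme or a transporter. Capitals mark the 8 letters of the element without its last N, or their reverse complement. The Tars stretch lies at chr15:11399659-11399714 on the minus strand and the Pck2 stretch at chr14:55540122-55540210 on the plus strand. That of Iars lies at chr13:49682126-49682155 on the plus strand, and that of Slc7a11, with 2 matches, at chr3:50443614-50443719 on the minus strand. The Yars stretch is chr4:129189896-129189925 on the plus strand and the Asns stretch is chr6:7693210-7693272 on the minus strand.
Tars: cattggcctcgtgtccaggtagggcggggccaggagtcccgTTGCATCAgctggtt
Pck2: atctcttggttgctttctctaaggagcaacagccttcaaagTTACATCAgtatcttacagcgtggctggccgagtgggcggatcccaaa
Iars: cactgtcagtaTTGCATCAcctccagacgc
Slc7a11: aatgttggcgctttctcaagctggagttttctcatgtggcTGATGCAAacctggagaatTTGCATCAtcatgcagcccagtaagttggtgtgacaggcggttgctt
Yars: cgagctcagcTGATGCAAcccgacgggact
Asns: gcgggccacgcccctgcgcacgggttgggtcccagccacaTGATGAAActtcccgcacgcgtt
A match is a description of the letters in this window. The other 12 called genes with a window, Mthfd2 and Phgdh among them, held no match there, which says nothing of elements outside it.

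Values are log2 intensities, so a difference of 1 is a factor of 2, and each gene's values were compared only with its own. Lamtor2 read 5.11, 5.40 and 5.77 in KO LSK arrays, against 10.39, 10.48 and 10.31 in WT LSK arrays. In GMP it read 5.53, 5.12 and 4.95 in KO arrays, against 10.80, 10.82 and 10.61 in WT arrays, so every array matched its labelled genotype. The mean of 10 LSK markers was 9.27 to 9.61 in LSK arrays and 7.47 to 8.11 in GMP arrays, and the mean of 12 GMP markers was 8.34 to 9.93 in LSK arrays and 10.77 to 11.03 in GMP arrays. The mean of the LSK markers was 9.27 to 9.49 in KO LSK arrays, against 9.49 to 9.61 in WT LSK arrays. Of the 10, 1 was lower in KO LSK and none higher. In GMP that mean was 7.65 to 8.11 in KO arrays, against 7.47 to 7.72 in WT arrays, with 2 of 10 higher and none lower. Within LSK, markers of later stages moved with the genotype. The mean of the GMP markers was 9.46 to 9.93 in KO LSK arrays, against 8.34 to 9.06 in WT LSK arrays, with 5 of 12 higher in the KO. The mean of 9 monocyte markers was 7.79 to 8.13 in KO LSK arrays, against 6.53 to 7.11 in WT LSK arrays. Of the 9, 4 were higher and none lower. In GMP that mean was 8.79 to 9.18 in KO arrays, against 8.45 to 8.56 in WT arrays. There the markers were split, with 3 of 9 higher and 2 lower. Markers of other cell types moved as well. The mean of 6 megakaryocyte markers was 6.55 to 6.82 in KO LSK arrays, against 7.18 to 7.71 in WT LSK arrays. Of the 6, 2 were lower and none higher. The mean of 7 erythroid markers was 6.75 to 6.87 in KO GMP arrays, against 7.14 to 7.30 in WT GMP arrays. Of the 7, 2 were lower and none higher. The mean of 14 macrophage markers was 6.78 to 7.62 in KO LSK arrays, against 5.76 to 5.98 in WT LSK arrays, and 8.08 to 8.41 in KO GMP arrays, against 6.27 to 6.40 in WT GMP arrays. The mean of 8 mast cell and basophil markers was 7.15 to 8.23 in KO LSK arrays, against 5.71 to 6.19 in WT LSK arrays, and 8.19 to 9.56 in KO GMP arrays, against 7.35 to 7.98 in WT GMP arrays. KO GMP array 1 stood apart from its group, with a weight of 0.19 when limma weighted arrays by their fit, against 0.68 to 2.15 for the other 11. The mean of 8 mature neutrophil markers was 9.92 in that array, against 8.08 and 7.75 in KO GMP arrays 2 and 3. This mean also varied within the other groups: 8.05 to 10.01 in WT GMP, 7.59 to 9.43 in KO LSK and 7.84 to 9.79 in WT LSK arrays. Many of the counts and calls below are given with and without KO GMP array 1, but not all.

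With Lamtor2 lost, 34 of the 37 genes did not pass the test in LSK cells, while 18 of the 37 fell in GMP cells, led by serine and folate enzymes and tRNA synthetases. A gene is said to have risen or fallen where limma's moderated test gave a Benjamini-Hochberg adjusted p under 0.05 over the 19937 genes. In KO LSK cells 2 of the 37 genes rose, Slc7a11 and Lars, and 1 fell, Pck2. Of all genes, 4.44% passed in LSK, 2.49% as higher and 1.96% as lower. In KO GMP cells 3 of the 37 rose and 18 fell, where 16.1% of all genes passed, 5.78% as higher and 10.3% as lower. The median log2 fold change of the module was 0.12 in LSK, against -0.013 over all genes, and -0.37 in GMP, against 0.015 over all genes. In LSK the KO and WT arrays did not overlap for 9 genes that were higher and 9 that were lower, where 25.5% of all genes did not overlap. In GMP this held for 3 higher and 21 lower genes, where 29.6% of all genes did not overlap. Without KO GMP array 1, 2 rose and 15 fell in GMP, with 9.26% of all genes lower, and 17 genes passed in both fits. Without WT GMP array 2, 13 genes passed. When quantile normalisation was repeated, 3 rose and 11 fell in GMP, and the median of the module there was -0.24, against -0.37. Psph, Shmt2, Asns, Lars, Nars, Yars and Eprs no longer passed (limma adjusted p of 0.0552 to 0.188).

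**Figure D1:**
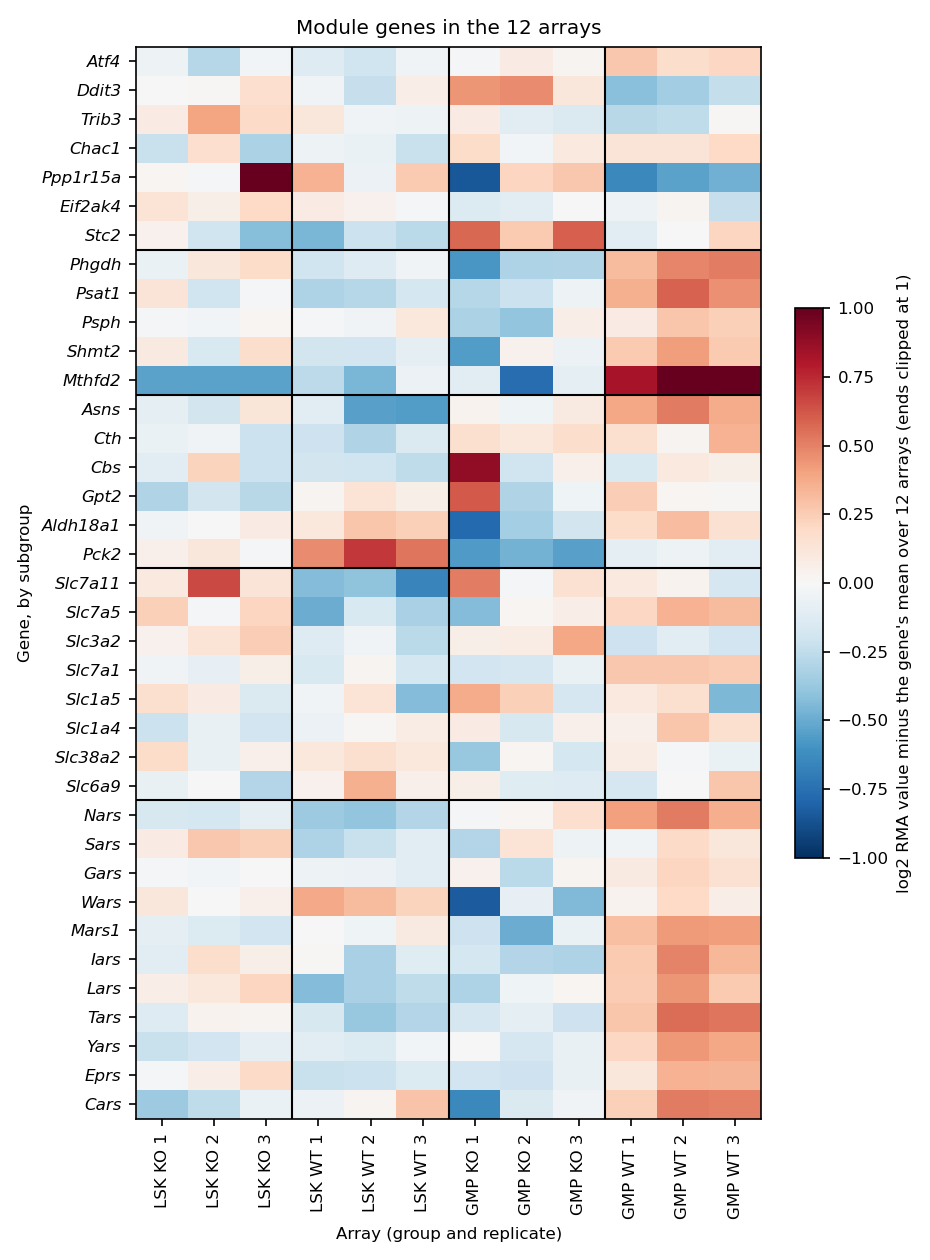
Log2 intensity of each of the 37 genes (rows, by role) in each of the 12 arrays (columns, by group), less the gene's mean over all arrays and clipped at 1 either way. In the rows of the serine and folate enzymes and of most tRNA synthetases the WT GMP arrays are the high ones.

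Of the 37 genes, Pck2 fell in both cell types, and Lars passed in opposite directions. Slc7a11 passed in LSK alone, 19 genes passed in GMP alone and 15 passed in neither. Such counts do not show that the effects differ, which was tested separately and is given with each group of genes and then for the module as a whole. In sorted populations measured in bulk, fewer cells of a type and less RNA per cell cannot be told apart. The macrophage, mast cell and basophil markers given above rose with the same genotype. In KO LSK 6 of 14 and 4 of 8 of them rose, and in KO GMP 8 of 14 and 3 of 8. Without KO GMP array 1, 9 of 14 and 5 of 8 rose in KO GMP. None of them was lower. Their part in the results below was not tested, nor was that of the other markers given above, which moved both ways.

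**Figure D2:**
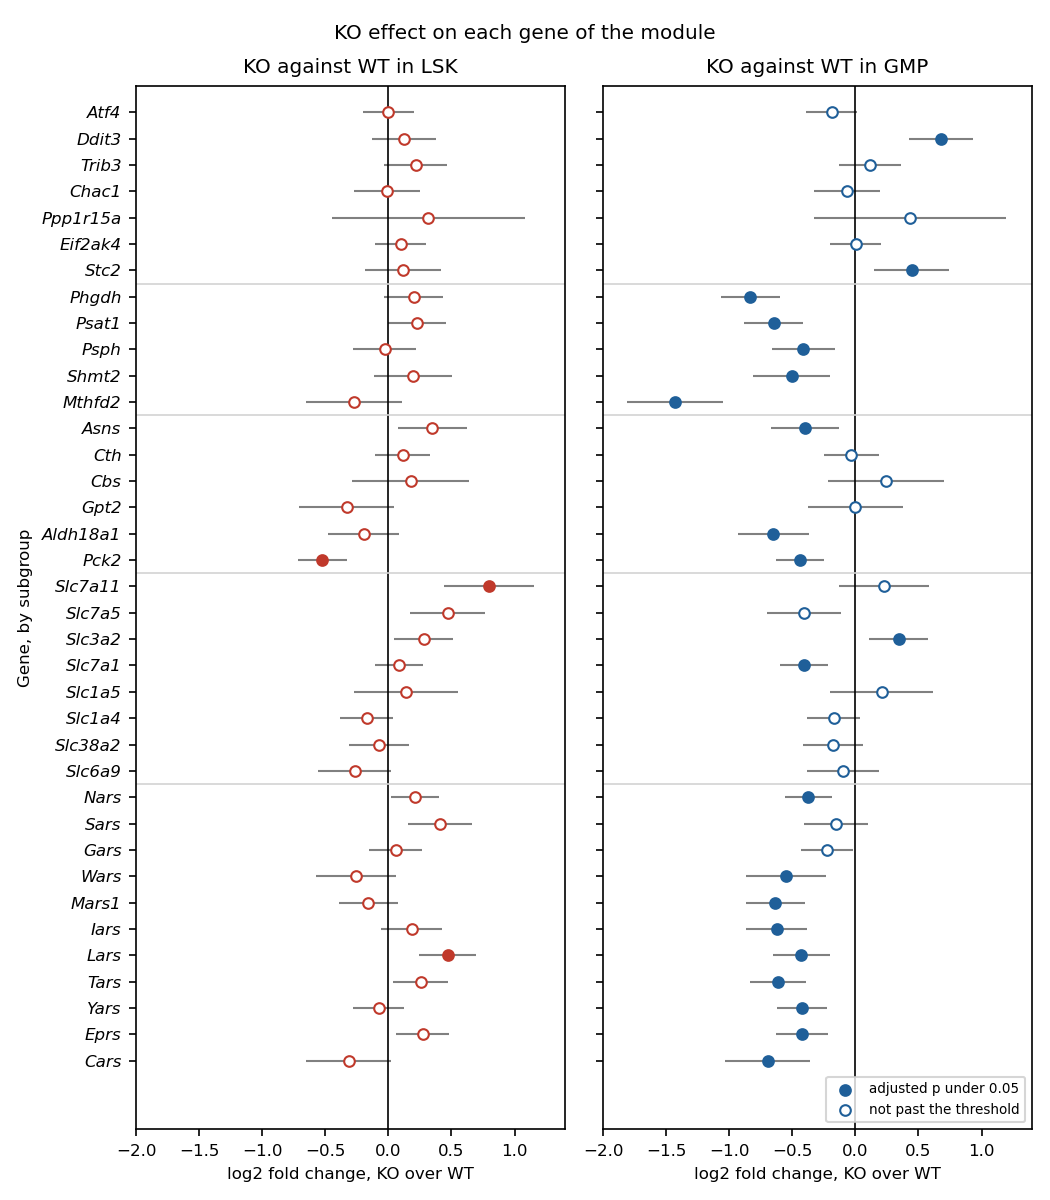
Log2 fold change of KO over WT for each gene in LSK (left) and GMP (right), with the 95% interval of the fit and filled points for adjusted p under 0.05. In GMP all 5 serine and folate enzymes and all 11 tRNA synthetases lie left of 0, 5 and 9 of them filled.

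Among the stress regulators and effectors, none of 7 passed in KO LSK, and 2 rose and none fell in KO GMP. Atf4 itself read 9.41, 9.18 and 9.44 in KO LSK arrays, against 9.33, 9.26 and 9.43 in WT LSK arrays. It read 9.44, 9.55 and 9.49 in KO GMP arrays, against 9.73, 9.64 and 9.67 in WT GMP arrays. The LSK groups overlap, while all KO GMP arrays lie below all WT GMP arrays by a margin that did not pass the test. The log2 fold change of Atf4 was 0.00 (SE 0.09, limma adjusted p = 1.00) in LSK and -0.19 (SE 0.09, adjusted p = 0.217) in GMP. These are mRNA levels, and ATF4 is regulated largely in translation, which was not measured. Eif2ak4, the sensor kinase GCN2, differed by 0.10 in LSK (95% interval -0.10 to 0.30) and by 0.00 in GMP (-0.20 to 0.20).

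Ddit3, which encodes CHOP, a transcription factor of prolonged stress, was the most changed of the stress genes. It read 8.71, 8.75 and 8.39 in KO GMP arrays, against 7.85, 7.92 and 8.04 in WT GMP arrays. Every KO value lay above every WT value, and the rise was 0.68 (SE 0.12, limma adjusted p = 0.00166). In LSK cells Ddit3 read 8.27, 8.28 and 8.44 in KO arrays, against 8.24, 8.04 and 8.34 in WT arrays, and these overlap. The secreted glycoprotein Stc2 read 6.69, 6.38 and 6.71 in KO GMP arrays, against 6.00, 6.11 and 6.33 in WT GMP arrays. Its groups did not overlap, with a rise of 0.45 (SE 0.14, adjusted p = 0.0432). The call of Stc2 did not hold without KO GMP array 1 or 3 or WT GMP array 1 or 2, with adjusted p of 0.102, 0.114, 0.162 and 0.131, and under median centring of the arrays it was 0.0649. Ppp1r15a, which encodes GADD34, the phosphatase subunit that ends the response, varied most between arrays of 1 group. It read 5.83, 6.90 and 6.95 in KO GMP arrays and 6.70, 6.67 and 8.17 in KO LSK arrays, so array 1 of the KO GMP group and array 3 of the KO LSK group stand alone. Trib3, a pseudokinase that restrains ATF4, and Chac1, which degrades glutathione, had log2 fold changes of -0.07 to 0.22 in the cell types, none past the test.

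**Figure D3:**
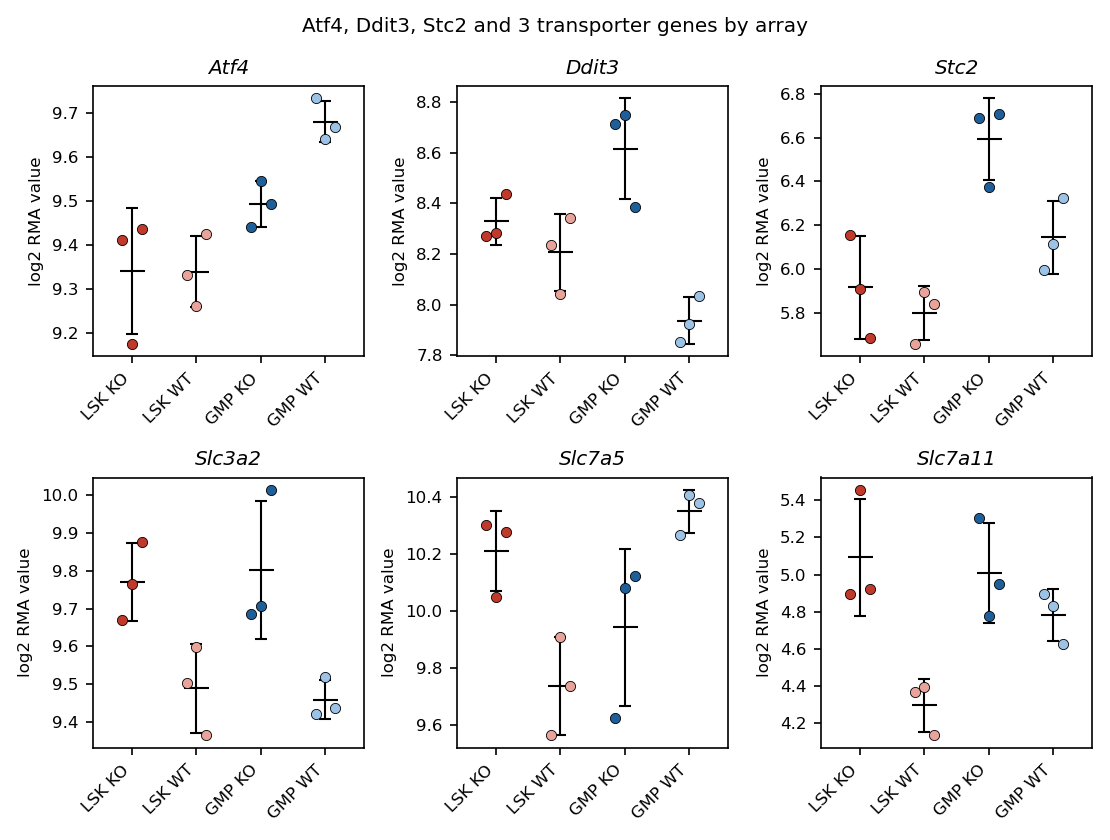
Log2 intensity of 3 stress genes and 3 transporter subunits in each array (points) with the mean and SD of 3 arrays per group, KO left of WT in each cell type. Ddit3 and Stc2 are higher in every KO GMP array than in any WT GMP array, while Atf4 is slightly lower.

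The serine and folate enzymes held the largest falls of the module in GMP. All 5 fell in KO GMP cells, with a median log2 fold change of -0.65, and none passed in KO LSK cells, where the median was 0.20. Mthfd2, the mitochondrial folate enzyme that oxidises the one-carbon unit released from serine, read 7.11, 6.45 and 7.13 in KO GMP arrays, against 8.04, 8.52 and 8.42 in WT GMP arrays. Its lowest WT array was thus well above its highest KO array. Mthfd2 fell by 1.43 (SE 0.18, limma adjusted p = 0.000146), to 0.37 of the WT level. Phgdh, the first enzyme of serine synthesis, read 8.03, 8.31 and 8.31 in KO GMP arrays, against 8.93, 9.10 and 9.12 in WT GMP arrays. Psat1, the aminotransferase of the next step, read 9.43, 9.50 and 9.66 in KO GMP arrays, against 10.06, 10.30 and 10.16 in WT GMP arrays. Neither gene's groups overlap, and the log2 fold changes were -0.83 (SE 0.11, adjusted p = 0.000211) for Phgdh and -0.65 (SE 0.11, adjusted p = 0.00126) for Psat1. These 3 calls held without any single array.

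The other members of the pathway were lower by less. Psph, the phosphatase that completes serine, read 7.86, 7.78 and 8.24 in KO GMP arrays, against 8.26, 8.45 and 8.41 in WT GMP arrays. Shmt2, which splits serine to glycine in mitochondria, read 9.45, 10.06 and 9.96 in KO GMP arrays, against 10.28, 10.44 and 10.27 in WT GMP arrays. Neither pair of groups overlapped, though the Psph arrays came close to it. The log2 fold changes were -0.41 (SE 0.12, limma adjusted p = 0.0273) for Psph and -0.51 (SE 0.14, adjusted p = 0.0276) for Shmt2. Psph lost its call without KO GMP array 1 or 2 or WT GMP array 2 or 3 (adjusted p = 0.0668, 0.0830, 0.111 and 0.0827). Shmt2 lost it without KO GMP array 1 (fold change -0.32, adjusted p = 0.0633) or WT GMP array 1, 2 or 3 (0.0605, 0.115 and 0.0590). Without KO GMP array 1 the group's median was -0.60 and 3 of 5 passed.

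In LSK cells none of these enzymes passed the test. Mthfd2 read 6.68 in each of the 3 KO LSK arrays, against 6.95, 6.76 and 7.15 in WT LSK arrays, a log2 fold change of -0.27 (SE 0.18, limma adjusted p = 0.531). Phgdh read 8.55, 8.73 and 8.80 in KO LSK arrays, against 8.42, 8.49 and 8.58 in WT LSK arrays. The Mthfd2 groups did not overlap and the Phgdh groups did. The KO effects in LSK and GMP differed by the interaction test for 4 of the 5 enzymes, Phgdh, Psat1, Mthfd2 and Shmt2.

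**Figure D4:**
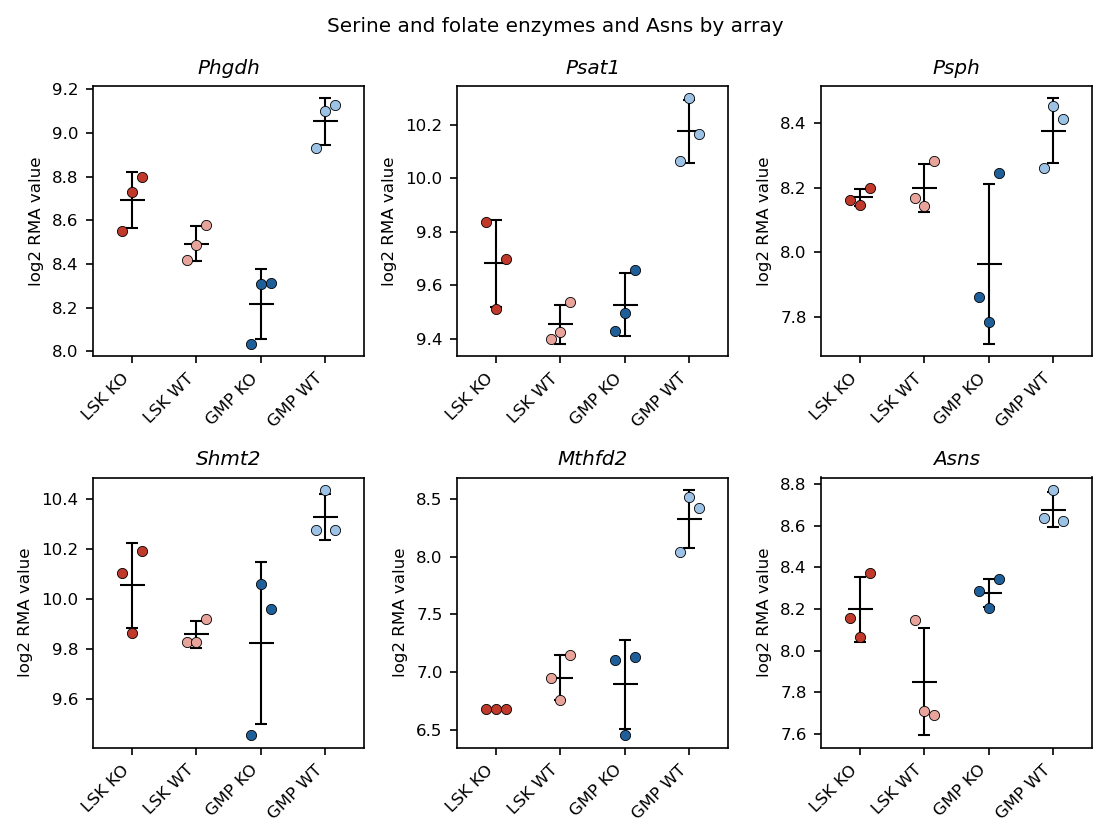
Log2 intensity of the 5 serine and folate enzymes and of Asns in each array, with mean and SD of 3 arrays per group, KO left of WT in each cell type. In each panel the 3 WT GMP arrays lie above the 3 KO GMP arrays.

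Of the 6 other amino acid enzymes measured, 1 fell in KO LSK and 3 in KO GMP, with none higher. Pck2, the mitochondrial phosphoenolpyruvate carboxykinase, was the gene that fell in both cell types. It read 8.0, 8.06 and 7.93 in KO LSK arrays, against 8.42, 8.66 and 8.48 in WT LSK arrays. In GMP it read 7.38, 7.48 and 7.41 in KO arrays, against 7.86, 7.90 and 7.83 in WT arrays. In neither cell type did KO and WT arrays overlap, and the spread within a group was small. The log2 fold change of Pck2 was -0.52 in LSK (SE 0.09, limma adjusted p = 0.00421) and -0.44 in GMP (SE 0.09, adjusted p = 0.00448).

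Aldh18a1, the enzyme that starts proline synthesis from glutamate, read 7.83, 8.27 and 8.43 in KO GMP arrays, against 8.80, 8.92 and 8.77 in WT GMP arrays. No KO GMP array reached the lowest WT GMP array. The log2 fold change was -0.65 (SE 0.13, limma adjusted p = 0.00437), and -0.48 without KO GMP array 1, the lowest of the 3. Asns, asparagine synthetase and a textbook ATF4 target, read 8.29, 8.21 and 8.34 in KO GMP arrays, against 8.64, 8.77 and 8.62 in WT GMP arrays. Its GMP groups did not overlap, but the call was marginal. Asns had a log2 fold change of -0.40 (SE 0.13, adjusted p = 0.0473) in GMP, and it lost its call whichever of the 6 GMP arrays was left out: 0.0716, 0.102 and 0.0596 without KO array 1, 2 or 3, and 0.0963, 0.173 and 0.0840 without WT array 1, 2 or 3.

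In LSK cells Asns read 8.16, 8.06 and 8.37 in KO arrays, against 8.15, 7.71 and 7.69 in WT arrays. WT LSK array 1 lies among the KO arrays. The log2 fold change was 0.35 (SE 0.13, limma adjusted p = 0.166), and without WT LSK array 1 it was 0.50 with an adjusted p of 0.0387. Cth and Cbs, the transsulfuration enzymes, and the alanine aminotransferase Gpt2 passed in neither cell type. In Cbs and Gpt2, KO GMP array 1 read 7.07 and 6.25, against 5.99 to 6.24 and 5.33 to 5.59 in KO GMP arrays 2 and 3.

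The 8 amino acid transporters did not move together. In KO LSK cells 1 rose and none fell, and in KO GMP cells 1 rose and 1 fell. Slc7a11, the cystine and glutamate exchanger, read 4.89, 5.46 and 4.92 in KO LSK arrays, against 4.37, 4.39 and 4.13 in WT LSK arrays. All KO LSK arrays were above all WT LSK arrays, and the rise was 0.80 (SE 0.16, limma adjusted p = 0.0144). The call did not hold without KO LSK array 2 (adjusted p = 0.0541) or WT LSK array 3 (0.0675). The level is low: with Cth, Gpt2 and Slc1a4, Slc7a11 is among 4 genes of the module whose group means all lie within or below 4.95 to 5.77, the range of Lamtor2 in KO arrays.

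Slc3a2 and Slc7a5 encode the heavy and light chains of the leucine transporter LAT1, and only the heavy chain passed in GMP. Slc3a2 read 9.69, 9.71 and 10.02 in KO GMP arrays, against 9.42, 9.52 and 9.44 in WT GMP arrays. Slc7a5 read 9.62, 10.08 and 10.12 in KO GMP arrays, against 10.26, 10.41 and 10.38 in WT GMP arrays. Neither pair of groups overlapped. Slc3a2 rose by 0.34 (SE 0.11, limma adjusted p = 0.0458), and Slc7a5, with a log2 fold change of -0.41 (SE 0.14, adjusted p = 0.0612), did not pass. The call of Slc3a2 did not hold without KO GMP array 3 or WT GMP array 1, 2 or 3 (adjusted p = 0.149, 0.134, 0.0899 and 0.113), nor under median centring (0.106). The Slc7a5 value was -0.25 without KO GMP array 1.

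In LSK cells both chains were higher in KO than in WT arrays without passing. Slc7a5 read 10.30, 10.05 and 10.28 in KO LSK arrays, against 9.56, 9.91 and 9.74 in WT LSK arrays, a log2 fold change of 0.47 (SE 0.14, limma adjusted p = 0.0750). Slc7a1, the cationic transporter for arginine and lysine, read 8.34, 8.36 and 8.46 in KO GMP arrays, against 8.80, 8.79 and 8.78 in WT GMP arrays. Its WT GMP arrays were almost identical and all above the KO arrays. Slc7a1 fell by 0.41 (SE 0.09, adjusted p = 0.00687) in GMP, and its log2 fold change in LSK was 0.08 (SE 0.09, adjusted p = 0.767). The neutral amino acid transporters Slc1a5, Slc1a4 and Slc38a2 and the glycine transporter Slc6a9 passed in neither cell type, with log2 fold changes of -0.27 to 0.21.

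The tRNA synthetases, which load amino acids onto their tRNAs, held the largest number of genes that fell. In KO GMP cells 9 of 11 fell and none rose, all 11 had a negative log2 fold change, and the median was -0.43. In 10 of the 11 every KO GMP array lay below every WT GMP array, where 17.6% of all genes did so. In KO LSK cells 1 of 11 rose, none fell, and the median was 0.19. Without KO GMP array 1 the same 9 passed in GMP. Of these 9, 5 passed when quantile normalisation was repeated, and 4, Cars, Iars, Mars1 and Tars, passed in a fit of the GMP groups alone.

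Mars1, for methionine, read 8.03, 7.74 and 8.18 in KO GMP arrays, against 8.54, 8.67 and 8.66 in WT GMP arrays. Iars, for isoleucine, read 9.60, 9.48 and 9.47 in KO GMP arrays, against 10.04, 10.28 and 10.11 in WT GMP arrays. Tars, for threonine, read 8.34, 8.41 and 8.30 in KO GMP arrays, against 8.79, 9.07 and 9.05 in WT GMP arrays. In each of these the KO and WT arrays were clearly apart. The log2 fold changes were -0.64 for Mars1 (SE 0.11, limma adjusted p = 0.00151), -0.63 for Iars (SE 0.11, adjusted p = 0.00218) and -0.62 for Tars (SE 0.10, adjusted p = 0.00129), or about 0.65 of the WT level. Cars, for cysteine, read 6.94, 7.44 and 7.54 in KO GMP arrays, against 7.82, 8.10 and 8.09 in WT GMP arrays. Wars, for tryptophan, read 7.93, 8.69 and 8.33 in KO GMP arrays, against 8.80, 8.97 and 8.84 in WT GMP arrays. In both, KO GMP array 1 was the lowest of all. Cars fell by 0.69 (SE 0.16, adjusted p = 0.00824) and Wars fell by 0.55 (SE 0.15, adjusted p = 0.0209), and without that array the log2 fold changes were -0.51 (adjusted p = 0.0171) and -0.36 (adjusted p = 0.0440). Wars lost its call without WT GMP array 2 or 3 (adjusted p = 0.0910 and 0.0530).

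The remaining 4 that fell changed by similar amounts. Yars, for tyrosine, read 8.28, 8.11 and 8.21 in KO GMP arrays, against 8.49, 8.72 and 8.67 in WT GMP arrays. Eprs, which charges both glutamate and proline tRNAs, read 10.14, 10.12 and 10.26 in KO GMP arrays, against 10.44, 10.68 and 10.66 in WT GMP arrays. Nars, for asparagine, read 10.49, 10.52 and 10.67 in KO GMP arrays, against 10.91, 11.02 and 10.86 in WT GMP arrays. Groups did not overlap in any of these. Lars, for leucine, read 9.77, 10.03 and 10.09 in KO GMP arrays, against 10.33, 10.51 and 10.33 in WT GMP arrays, again apart. The log2 fold changes were -0.42 for Yars, -0.43 for Eprs, -0.37 for Nars and -0.43 for Lars, with SE of 0.09 to 0.11 and limma adjusted p of 0.00722, 0.00869, 0.0108 and 0.0138. Without WT GMP array 2 Lars and Nars lost their calls (adjusted p = 0.0738 and 0.0590). Gars, for glycine, and Sars, for serine, did not pass in GMP, at -0.22 and -0.16.

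Lars was the synthetase that also passed in LSK, in the other direction. It read 10.14, 10.18 and 10.29 in KO LSK arrays, against 9.64, 9.75 and 9.82 in WT LSK arrays. All KO LSK arrays were above all WT LSK arrays, and Lars rose by 0.47 (SE 0.11, limma adjusted p = 0.0222). That call did not hold without KO LSK array 2 or 3 or WT LSK array 1 or 2 (adjusted p = 0.0602, 0.0992, 0.0993 and 0.0745). Sars, Eprs, Tars, Nars and Gars were also higher in every KO LSK array than in any WT LSK array, while Wars, Mars1 and Cars were lower in every one, and none of these 8 passed. Over all genes, 12.4% were higher and 13.2% lower without overlap in LSK.

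Whether the KO effect differed between the cell types was tested as the effect in LSK minus the effect in GMP. For 12 of the 37 genes this difference passed, in each case above 0, where 7.98% of all genes passed, 5.34% above 0 and 2.64% below. In words, the KO value relative to WT was higher in LSK than in GMP for 4 of 5 serine and folate enzymes, 5 of 11 tRNA synthetases, 2 of 8 transporters, 1 of 6 other enzymes and none of the 7 stress genes. Among the largest were Mthfd2 at 1.16 (SE 0.25, limma adjusted p = 0.0136), from effects of -0.27 in LSK and -1.43 in GMP, and Phgdh at 1.03 (SE 0.15, adjusted p = 0.00233), from 0.20 in LSK and -0.83 in GMP. Lars followed at 0.90 (SE 0.15, adjusted p = 0.00413), Slc7a5, which passed in neither cell type alone, at 0.88 (SE 0.19, adjusted p = 0.0157), Psat1 at 0.88 (SE 0.15, adjusted p = 0.00508) and Tars at 0.87 (SE 0.14, adjusted p = 0.00414). Iars, Eprs and Nars differed by 0.81, 0.70 and 0.58 (adjusted p = 0.00897, 0.00897 and 0.0130). The remaining genes were Asns at 0.75 (adjusted p = 0.0228), Slc7a1 at 0.49 (0.0302) and Shmt2 at 0.70 (0.049998).

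For Asns, Slc7a1 and Shmt2 the call depended on single arrays. The differences in brackets are those of the fits that lost the call. Asns lost its call without KO LSK array 3, WT LSK array 2 or 3, or WT GMP array 2 (differences of 0.66 to 0.70, adjusted p of 0.0591 to 0.0698). Slc7a1 lost it without KO LSK array 1 or 3, WT LSK array 1 or 3, or any WT GMP array (differences of 0.45 to 0.50, adjusted p of 0.0599 to 0.0804). Shmt2 lost it without KO LSK array 1 or 3, any WT LSK array or any WT GMP array (differences of 0.63 to 0.73, adjusted p of 0.0777 to 0.132). Without KO GMP array 1 all 12 genes passed again, with Shmt2 at 0.52, against 0.70 with all arrays. Ddit3 had the largest difference below 0, -0.55 (SE 0.17, limma adjusted p = 0.0576), and did not pass. Pck2, with effects of -0.52 in LSK and -0.44 in GMP, differed by -0.08 between the cell types, with a 95% interval of -0.35 to 0.19. When the arrays were quantile normalised again the count was 6 above 0 and 1 below. Iars (0.56, adjusted p = 0.0718), Eprs (0.46, 0.0537) and Nars (0.36, 0.0653) did not pass there, nor did Asns (0.62, 0.0608), Slc7a1 (0.32, 0.147) and Shmt2 (0.46, 0.138). With that setting the split among all genes that passed was 54% above 0, against 66.9% with the deposited values and 80.7% after median centring.

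The cell types also differed without the deletion. In WT LSK cells 16 of the 37 genes were lower than in WT GMP cells and 1, Pck2, was higher, where 19.6% of all genes passed, 10.3% higher and 9.32% lower in LSK. The log2 differences with the smallest p were Nars at -0.78, Mthfd2 at -1.37, Pck2 at 0.66, Tars at -0.73, Psat1 at -0.72, Asns at -0.83, Lars at -0.66 and Phgdh at -0.56, with SE of 0.09 to 0.18 and limma adjusted p from 2.6e-05 to 0.00198. Atf4 was among the genes that were lower in WT LSK, at -0.34 (SE 0.09, adjusted p = 0.0201), from 9.34 ± 0.08 in WT LSK and 9.68 ± 0.05 in WT GMP (SD, n = 3 each). Without overlap, 5 genes were higher and 22 lower in WT LSK arrays, where 40.6% of all genes did not overlap. By role, 4 of 5 serine and folate enzymes and 7 of 11 tRNA synthetases were lower in WT LSK.

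In KO cells fewer genes of the module separated the cell types. In KO LSK cells 4 genes were higher than in KO GMP cells and 1 was lower, where 15.8% of all genes passed, 10.1% higher and 5.79% lower in LSK. Without overlap, 9 were higher and 4 lower in KO LSK arrays, where 31.5% of all genes did not overlap. The counts that passed and those without overlap both lie near the shares of all genes. The higher genes were Pck2 at 0.58 (SE 0.09, limma adjusted p = 0.000864), Phgdh at 0.48 (SE 0.11, adjusted p = 0.00946), Wars at 0.51 (SE 0.15, adjusted p = 0.0334) and Aldh18a1 at 0.45 (SE 0.13, adjusted p = 0.0345). The lower gene was Stc2 at -0.67 (SE 0.14, adjusted p = 0.00547). Wars did not pass without KO GMP array 1 (0.31, adjusted p = 0.0819) or 3 (0.0587) or any KO LSK array (0.0600 to 0.0968). Aldh18a1 did not pass without KO GMP array 1 (0.28, adjusted p = 0.0796) or any KO LSK array (0.0662 to 0.123), and Phgdh did not pass without KO LSK array 3 (0.0520). The count was 2 to 8 with single arrays left out: 3 without KO LSK array 1, 2 without KO LSK array 3, 3 without KO GMP array 1 and 8 without KO GMP array 2. When quantile normalisation was repeated, 2 were higher and 3 lower in KO LSK. The median of the module was then 0.007, against 0.115 with the deposited values. Wars and Aldh18a1 did not pass there (limma adjusted p = 0.0601 and 0.0664).

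Of the 18 genes that fell in KO GMP cells, 16 had their highest group mean in WT GMP, all but Pck2 and Wars. The 18 were picked for being lower in KO GMP than in WT GMP, and that choice favours a high WT GMP mean. The share among all genes that fell was not counted. Mthfd2 averaged 6.68 ± 0.00 in KO LSK, 6.95 ± 0.20 in WT LSK, 6.89 ± 0.38 in KO GMP and 8.32 ± 0.25 in WT GMP (SD, n = 3 each), so WT GMP is the high group and the other 3 lie close together. Psat1 averaged 9.68 ± 0.16 in KO LSK, 9.45 ± 0.07 in WT LSK, 9.53 ± 0.12 in KO GMP and 10.18 ± 0.12 in WT GMP. Eprs averaged 10.40 ± 0.10 in KO LSK, 10.13 ± 0.05 in WT LSK, 10.17 ± 0.07 in KO GMP and 10.59 ± 0.13 in WT GMP. The comparisons of KO with WT GMP, of WT LSK with WT GMP and of the 2 KO effects all use the same 3 WT GMP arrays, so their values are not independent of each other.

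Genes near the module in the same pathways were read from 7 further lists. Over all genes, 5.78% passed as higher and 10.3% as lower in GMP, and 2.49% and 1.96% in LSK. Of 10 other cytosolic tRNA synthetases and scaffold proteins of the multisynthetase complex, 5 fell in KO GMP and none passed in KO LSK. Aimp2, a scaffold protein of that complex, read 8.97, 9.14 and 9.31 in KO GMP arrays, against 9.86, 9.82 and 9.81 in WT GMP arrays, and fell by 0.69 (SE 0.11, limma adjusted p = 0.00103). Rars, Farsb and Hars, for arginine, phenylalanine and histidine, fell by 0.55, 0.54 and 0.42. When KO GMP array 1 was left out 4 of the 10 fell, and the median of the list was -0.28, against -0.46 with all arrays. Of 16 mitochondrial tRNA synthetases none passed in either cell type, with 5 in GMP and 3 in LSK at an unadjusted p under 0.05 and medians of -0.16 in GMP and 0.00 in LSK. Of 17 other one-carbon and glycine enzymes 3 fell in KO GMP and none passed in KO LSK. These were Mthfd1, the cytosolic folate enzyme, at -0.51, Tyms, which makes thymidylate, at -0.68, and Dld, a subunit of the glycine cleavage system, at -0.36. Without KO GMP array 1 the count in that list was 5 lower and 1 higher, of which 2 passed in both fits.

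**Figure D5:**
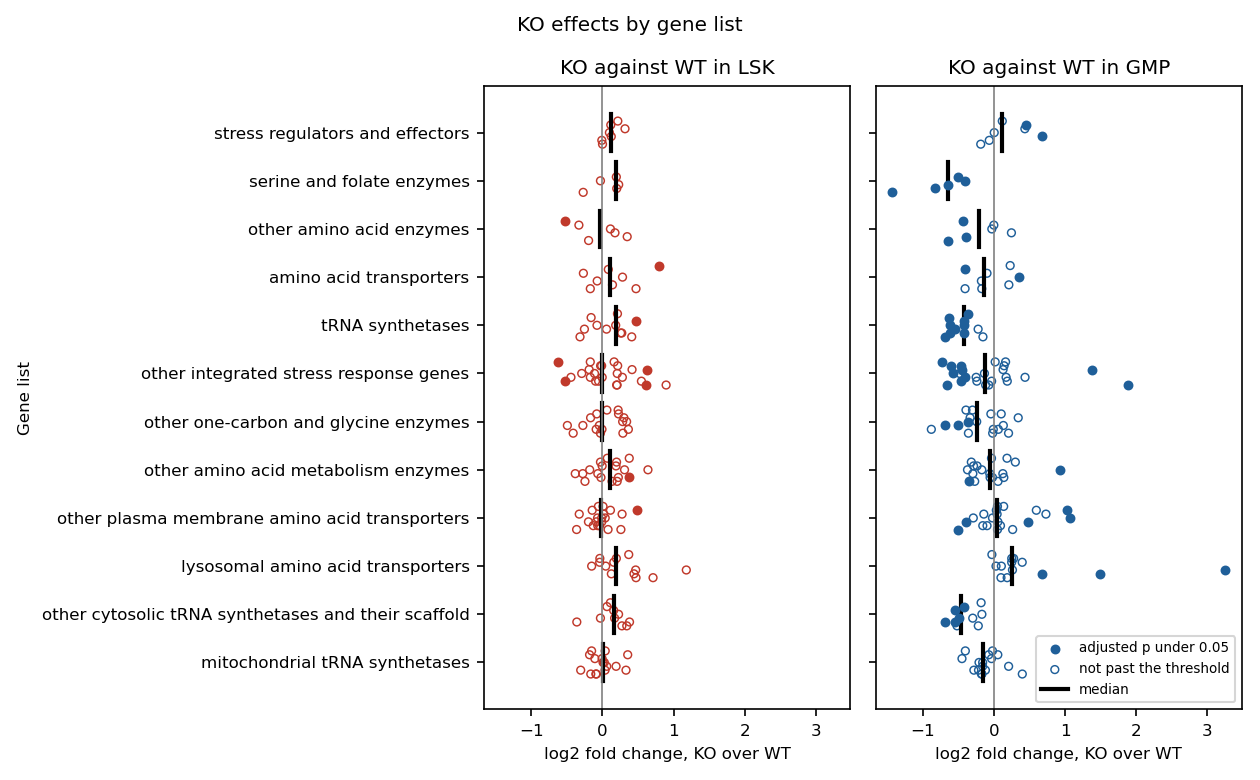
Log2 fold change of KO over WT in LSK (left) and GMP (right) for each gene (points) of the 5 groups of the module and 7 further lists, filled at adjusted p under 0.05, with a bar at the median. The cytosolic tRNA synthetases of both lists lie left of 0 in GMP, and the mitochondrial ones lie around -0.16.

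Of 24 other genes of the integrated stress response, 2 rose and 8 fell in KO GMP, and 2 rose and 2 fell in KO LSK. Of all genes, 5.78% rose and 10.3% fell in GMP, and 2.49% rose and 1.96% fell in LSK. In GMP 2 rose and 6 fell when KO GMP array 1 was left out. Atf3, a transcription factor induced by ATF4, read 7.43, 7.21 and 8.31 in KO GMP arrays, against 5.81, 5.77 and 5.72 in WT GMP arrays, and rose by 1.89 (SE 0.25, limma adjusted p = 0.000249). Impact, an inhibitor of GCN2, read 10.14, 9.71 and 9.60 in KO GMP arrays, against 8.56, 8.39 and 8.38 in WT GMP arrays, and rose by 1.37 (SE 0.13, adjusted p = 2.2e-05). In neither gene did the groups overlap. Impact also rose in KO LSK, by 0.63 (adjusted p = 0.0157). The eIF2 kinase Eif2ak1 fell by 0.60 in KO GMP, and the oxidoreductase Ero1a fell by 0.65 in KO GMP and rose by 0.61 in KO LSK. Nupr1, a stress-induced chromatin protein, fell by 0.62 in KO LSK, and Sesn2, a leucine sensor upstream of mTORC1, fell by 0.52 there and by 0.46 in KO GMP.

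Of 20 other plasma membrane amino acid transporters 3 rose and 2 fell in KO GMP, and 1 rose in KO LSK. The shares of all genes were 5.78% higher and 10.3% lower in GMP, and 2.49% higher in LSK. The count of 2 that fell is near its share. Without KO GMP array 1, 5 of the 20 rose and 1 fell in KO GMP. Slc43a2, a transporter of large neutral amino acids, read 8.20, 8.24 and 8.13 in KO GMP arrays, against 7.19, 7.18 and 6.99 in WT GMP arrays, a rise of 1.07 (SE 0.11, limma adjusted p = 3.5e-05). The taurine transporter Slc6a6 rose by 1.03 in KO GMP and by 0.49 in KO LSK, Slc7a4 rose by 0.48 in KO GMP, and the aromatic amino acid transporter Slc16a10 fell by 0.50 there. Of 13 lysosomal transporters, a list that also holds carriers of other solutes such as the sugar phosphate carrier Slc37a2, 3 rose in KO GMP and none passed in KO LSK. Slc15a3, a lysosomal peptide and histidine transporter, read 8.74, 8.62 and 9.56 in KO GMP arrays, against 5.71, 5.34 and 6.11 in WT GMP arrays. The groups were far apart, and Slc15a3 rose by 3.25 (SE 0.31, adjusted p = 2.1e-05). Slc37a2 rose by 1.5 and Mfsd12, a cysteine transporter, by 0.68, and without KO GMP array 1 the count in that list was 7. Of 18 other enzymes of amino acid metabolism 1 rose and 1 fell in KO GMP. With all arrays these counts are no more than the shares of all genes. Without KO GMP array 1, 1 rose and 2 fell, or 11.1% lower, against 9.26% of all genes. Got1, the cytosolic aspartate aminotransferase, rose by 0.93, and Oat, ornithine aminotransferase, had a log2 fold change of -0.35. In KO LSK 1 rose, the proline oxidase Prodh, by 0.37. The macrophage marker means given above were higher in the same KO arrays, and their part in these values was not tested.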

How the data were processed

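RNA of sorted cells was amplified and labelled with biotin, and each sample was hybridised to 1 array, per the labels' protocols. The authors deposited 1 table of processed values, made with RMA (background correction, quantile normalisation, probe set summary) per the submitters' processing notes. The software used for it is not given in the sources used here. Values that the authors deposited were taken to be log2 intensities because array medians were 5.96 to 6.18 and maxima 14.01 to 14.20. No normalisation was added, although medians were 6.18, 6.12 and 6.12 in KO GMP arrays, against 6.03, 5.96 and 6.05 in WT GMP arrays. Precision is limited by the number of arrays. No pair of arrays held identical values.

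The table held 34760 probe sets, of which 22961 were annotated. A single gene symbol was found for 21640 (21553 named through the gene identifier in a RefSeq gene table of GRCm38.p6, 87 with the annotation's own symbol), 1321 had several symbols and were left out, and the rest gave 19937 genes. Where a gene had more than 1 probe set (954 genes), the one of highest mean was kept. Of the module only Iars had several, which went the same way, and Mars is listed as Mars1.

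The 4 groups were fitted together with limma 3.58.1 in R 4.3.3 (lmFit and eBayes, 8 residual and 5.16 prior degrees of freedom), and 5 contrasts were tested two-sided with Benjamini-Hochberg adjustment over 19937 genes at 0.05. Adjusted p-values in the text are limma's. Replicates are taken as separate mice from the design text. The method was run on simulated data in which a gene had the same spread in every group. In the real arrays the root mean square deviation from the group mean was 0.218 in KO GMP and 0.116 in WT GMP. The simulation does not cover that difference. Correlations of same-numbered arrays of different groups were -0.231 to 0.285, and in no pair of groups were all 3 above 0.1. Between KO LSK and WT LSK all 3 were above 0, though low (0.065, 0.036 and 0.129). Numbers were not used as pairs in the main fit. That fit treats the LSK and GMP arrays of a genotype as independent, though they may come from the same mice.

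All members and lists were chosen with earlier results of these data known. The rule for naming genes was each member past 0.05 for KO against WT, with Atf4, Asns, Ddit3 and Eif2ak4 in any case, up to 8 members in the other contrasts, and up to 4 genes per further list. Members outside that rule were named after their values were seen. Alternatives were another normalisation, median centring, a filter on the dimmest 30% of genes, other probe set, variance and weighting choices, separate fits, a replicate block, a fold minimum and leaving out each array.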

Additional observations from a re-analysis of the deposited data

Results flagged for a closer look

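The KO effect differed between the cell types, by the interaction test of limma (LSK minus GMP, log2 scale), for 12 genes of the module. Among serine and folate enzymes these were Mthfd2 (1.16), Phgdh (1.03), Psat1 (0.88) and Shmt2 (0.70). Among tRNA synthetases they were Lars (0.90), Tars (0.87), Iars (0.81), Eprs (0.70) and Nars (0.58). The others were the transporters Slc7a5 (0.88) and Slc7a1 (0.49) and the enzyme Asns (0.75). All 12 used the 3 WT GMP arrays, the group in which each of them had its highest mean. The 12 were picked for a difference above 0, and that choice favours a high WT GMP mean. Groups of 3 arrays were not tested for single arrays far from the others.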

How the results depend on the processing

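In KO against WT in LSK 3 genes of the module passed, and the count was 5 with array weights, 6 in a fit of the LSK groups alone, 0 with a log2 fold change of at least 1 as well, and 1 to 3 with single arrays left out (1 without KO LSK array 2). In KO against WT in GMP 21 passed, with 12 in a fit of the GMP groups alone, 1 with the fold minimum, and 13 to 20 with single arrays left out (13 without WT GMP array 2). The interaction gave 12, with 7 after quantile normalisation was repeated, 2 with the fold minimum, and 9 to 15 with single arrays left out. WT LSK against WT GMP gave 17, with 1 at the fold minimum and 13 to 16 with single arrays left out. KO LSK against KO GMP gave 5, with 2 in a fit of the KO groups alone, 0 at the fold minimum and 2 to 8 with single arrays left out. The fold minimum lowers counts by its construction, and the other causes were not tested. With the replicate number as a block the counts were 4, 18, 11, 19 and 5 in the order above. Stc2, Asns and Slc3a2 lost their GMP calls there (limma adjusted p = 0.0654, 0.0630 and 0.0615). Slc7a1 and Shmt2 lost theirs in the interaction (limma adjusted p = 0.0513 and 0.0572).

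No named gene that passed changed sign under these settings, where the named genes of WT LSK against WT GMP are the 8 with the smallest p, without Atf4. Median centring moved the share of higher genes among all that passed to 24.7% in GMP KO against WT, against 35.9% in the deposited values, and to 34.3% in WT LSK against WT GMP, against 52.4%. It moved the median of all genes between WT LSK and WT GMP to -0.12, against -0.03. In GMP, 286 named values kept their side of the threshold under an alternative and 49 missed it. Values at the level of the deleted Lamtor2, such as Slc7a11, are limited by the array's background.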
